A study of Danio rerio with 6 samples.

Results

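Cathepsins and legumain are the proteases that digest protein inside lysosomes. The genes described here are the Ensembl rows whose symbol, without regard to case, was one of 10 listed names for cathepsins L, B, H, D, C, Z and K and for legumain. Of these names, 9 matched 1 row each, and ctsba matched none, so 9 of 35117 gene IDs are members. All 9 passed the filter on low counts. A gene listed as CTSB was not on the list; RefSeq's gene table gives ctsb as another name of ctsba, and CTSB is described beside the members as a further cathepsin. CTSA and ctsf are described in the same way.

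RNA was sequenced from intestinal cells of wild-type zebrafish larvae of the EK strain, sorted at 6 days after fertilization. Every larva had been gavaged at 5 days with Alexa Fluor 568 dextran, a fluorescent sugar polymer. The group of intestinal epithelial cells (IEC, 3 libraries) was positive for the cldn15la-GFP reporter, which marks the gut epithelium. The group of lysosome rich enterocytes (LRE, 3 libraries) was positive for the same reporter and for the dextran 24 hours after gavage. Nothing in the labels states that the IEC gate shut out cells holding dextran. Nor do they tell whether each numbered library had its own pool of larvae. The p-values therefore rest on library-to-library spread, part or all of which may be technical.

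Most cathepsins are cysteine proteases of the papain family, made as inactive proenzymes and activated in the acid of endosomes and lysosomes. Cathepsins L and B cut within protein chains, H, C and Z trim chain ends, and cathepsin D is an aspartic protease. Legumain cuts after asparagine and in mammals also processes several cathepsins to their mature forms. Lysosome rich enterocytes of fish, like the ileal enterocytes of suckling mammals, take up dietary protein whole from the gut lumen and digest it inside the cell.

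The libraries held between 39590129 and 53250871 counts assigned to genes. LRE 1 stood apart: reads were seen for 19396 genes in it against 22974 to 25610 in the other libraries, and genes encoded in mitochondria took 21.7% of its counts against 4.18 to 11.4% elsewhere. The lists of markers were chosen with earlier results of these data known. Of 5 tested markers of lysosome rich enterocytes, 4 rose, where 2.30% of all tested genes did. These were the cubilin gene CUBN, its partner amn, its adaptor dab2 and the megalin gene lrp2b. CUBN was at 3.24 to 5.77 CPM in IEC and at 366 to 640 CPM in LRE; CPM is a gene's share of a library's counts, scaled by TMM factors. The fifth, a second gene with the symbol DAB2, did not pass (log2 fold change -0.08). The sorting gene cldn15la was at 3036 to 5298 CPM in IEC and at 2593 to 3011 CPM in LRE. It was thus lower in LRE without overlap, but did not pass (log2 fold change -0.44 ± 0.40, edgeR adjusted p = 0.640). Of 7 tested markers of the intestinal epithelium, FABP2, a fatty acid binding protein gene, was the 1 that passed. It was lower in LRE (log2 fold change -2.21 ± 0.42, edgeR adjusted p = 0.0304), as 0.910% of all tested genes were. The call of FABP2 ended without any 1 library (edgeR adjusted p up to 0.109). Of the same 7 markers, 3 were lower without overlap, which 13.8% of all tested genes showed, and 1 had a positive log2 fold change. In bulk samples fewer cells of a type and less RNA per cell cannot be told apart.

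Of the 9 members, 7 rose in LRE and none fell (edgeR's quasi-likelihood F test; p adjusted by Benjamini-Hochberg over 20979 genes, under 0.05), where 2.30% of all tested genes were higher and 0.910% lower. The same number, 7, was called higher by DESeq2 (5.93% of genes), by limma voom (2.89%) and with the replicate number as a block (3.76%), and 5 with scaling by library totals alone (0.653%); no member was lower in any of these, or at an unadjusted p under 0.05, which 17.0% of all tested genes reached in either direction. Members and related lists were chosen with earlier results of these data known. Shares of all tested genes therefore give a background, not a test of a list. The rising members were ctsl.1, ctsbb, LGMN, CTSH, CTSZ, CTSC and CTSD. The members that did not pass were ctsla and CTSK. The median log2 fold change was 4.35 over the members and -0.06 over all tested genes. A change beyond 2-fold passed for 5 members (edgeR's TREAT test), against 0.729% of tested genes; these were ctsl.1, ctsbb, CTSH, CTSZ and LGMN. All 3 LRE values lay above all 3 IEC values in the 7 rising members, which 13.0% of tested genes also showed.

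**Figure D1:**
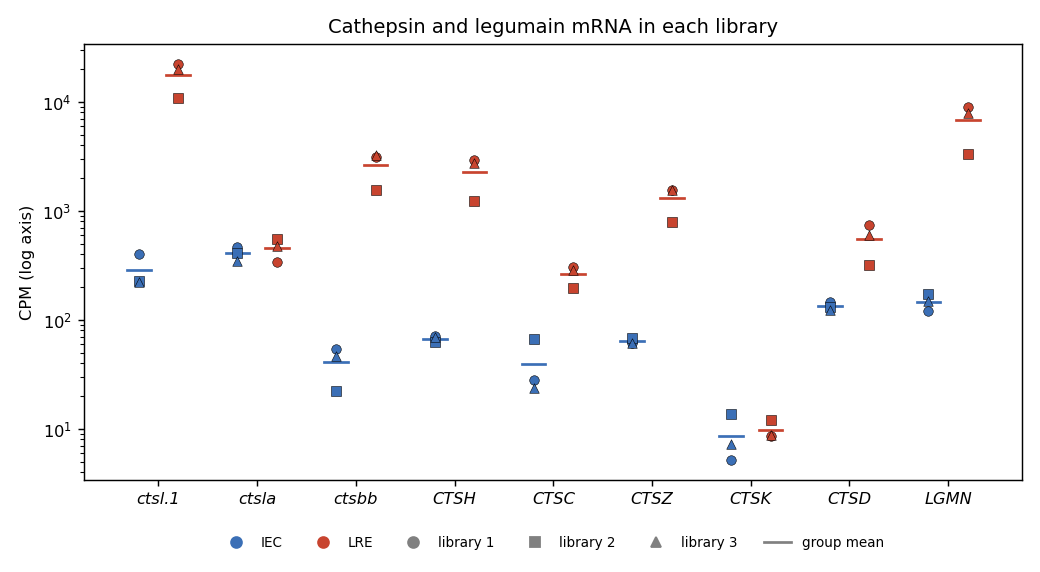
Level of each member in CPM (vertical log axis) in the 3 IEC and 3 LRE libraries; points are libraries, shaped by number, and bars are group means. The LRE points stand clear above the IEC points except for ctsla and CTSK, and LRE library 2 is the lowest LRE point of each gene that rose.

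Together the members took 0.137% ± 0.024 of all counts in IEC (mean ± SD, n = 3), and the LRE share was 2.77% ± 0.98 (n = 3). Their summed level was 1354, 1170 and 1046 CPM in IEC 1, 2 and 3, and 40150, 18778 and 36613 CPM in LRE 1, 2 and 3. The groups did not overlap, and in this TMM-scaled sum the LRE mean was 26.8-fold that of IEC. The shares of all counts, which carry no TMM scaling, differed by less. An exact two-sided permutation test over the libraries gave p = 0.1, which is the smallest that 3 against 3 libraries allow.

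The cathepsin L genes moved apart. Cathepsin L is an endopeptidase that breaks down much of the protein reaching lysosomes. The gene ctsl.1 (ENSDARG00000003902) was at 403, 228 and 220 CPM in IEC 1, 2 and 3 and at 22271, 10807 and 19790 CPM in LRE 1, 2 and 3. Every LRE library held far more of it than any IEC library, and the log2 fold change was 5.96 ± 0.62 (SE; edgeR adjusted p = 0.00289). Its relative ctsla (ENSDARG00000007836) was at 466, 405 and 347 CPM in IEC and at 337, 553 and 471 CPM in LRE. Those ranges overlapped, and ctsla did not pass (log2 fold change 0.16 ± 0.31, edgeR adjusted p = 0.850). Its sign is not settled, being -0.17 with scaling by library totals alone and -0.01 without LRE 2.

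A ratio of reads within a library needs no scaling between libraries. For each read of ctsla, the IEC libraries held 0.864, 0.563 and 0.634 reads of ctsl.1, and the LRE libraries 66.1, 19.5 and 42.0. The mean log2 ratio over 3 libraries was -0.57 ± 0.32 (SD) in IEC against 5.24 ± 0.89 in LRE, a difference of 5.81. The exact permutation p was 0.1, again the smallest possible, and there was no overlap between the groups. Reads shared by near-identical cathepsin L copies may have been dropped in counting, so the values of single copies are uncertain. How alike ctsl.1 and ctsla are in sequence was not tested.

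Cathepsin B showed a similar division between its copies. Cathepsin B is an endopeptidase that can also clip dipeptides from the end of a chain. The member ctsbb (ENSDARG00000101051) was at 54.0, 22.3 and 46.7 CPM in IEC and at 3105, 1557 and 3232 CPM in LRE. Every LRE value was far above the IEC values, with a log2 fold change of 6.00 ± 0.57 (edgeR adjusted p = 0.00245). That is within the SE of the change of ctsl.1, and the order of the pair turned without IEC 1, IEC 2 or LRE 3. The gene listed as CTSB (ENSDARG00000055120) was at 125, 198 and 81.0 CPM in IEC and at 294, 288 and 305 CPM in LRE. Its groups did not overlap, but it did not pass (log2 fold change 1.14 ± 0.36, edgeR adjusted p = 0.144); DESeq2, which called 5.93% of all genes higher, called it too (adjusted p = 0.0385). For each CTSB read there were 0.433, 0.113 and 0.576 ctsbb reads in IEC and 10.6, 5.42 and 10.6 in LRE. The log2 ratio differed by 4.80 between the groups (exact permutation p = 0.1). These were the 2 pairs of copies compared, and with Benjamini-Hochberg adjustment both p-values stay at 0.1.

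**Figure D2:**
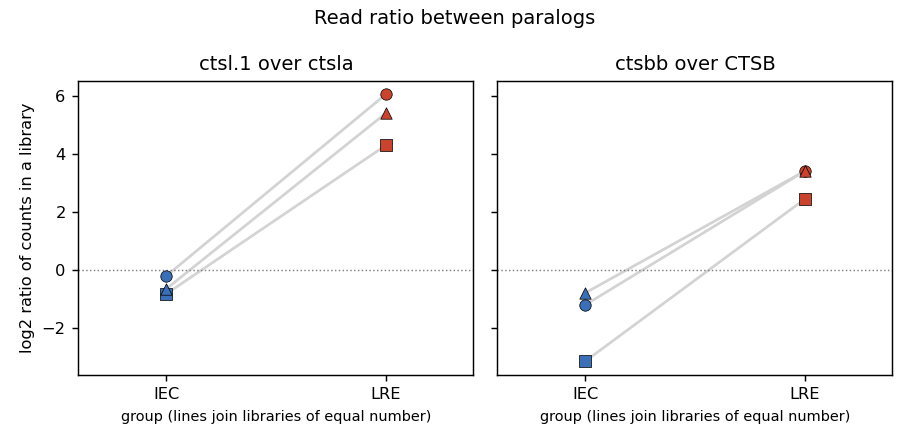
Log2 ratio of counts of ctsl.1 to ctsla (left) and of ctsbb to CTSB (right) in each library; points are libraries, and lines join IEC and LRE libraries of equal number. In both panels all IEC points lie below 0 and all LRE points above it.

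Legumain, the asparaginyl endopeptidase, was among the members with the largest change. LGMN (ENSDARG00000039150) was at 120, 173 and 147 CPM in IEC 1, 2 and 3 and at 8903, 3332 and 7956 CPM in LRE 1, 2 and 3. The groups were far apart, with a log2 fold change of 5.52 ± 0.57 (edgeR adjusted p = 0.00277). Within pairs of equal library number the log2 ratio was 6.22, 4.27 and 5.75, lowest in the pair numbered 2.

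The 3 exopeptidases all rose. Cathepsin H is mainly an aminopeptidase, and CTSH (ENSDARG00000041108) was at 70.3, 62.4 and 69.1 CPM in IEC and at 2924, 1220 and 2716 CPM in LRE (log2 fold change 5.09 ± 0.48, edgeR adjusted p = 0.00244). Its IEC libraries differed little among themselves (67.3 ± 4.27 CPM, mean ± SD, n = 3). Cathepsin Z, also called cathepsin X, is a carboxypeptidase, and CTSZ (ENSDARG00000043081) was at 61.6, 67.5 and 61.4 CPM in IEC and at 1557, 784 and 1557 CPM in LRE (4.35 ± 0.41, edgeR adjusted p = 0.00244). Both genes were low and even in IEC (SD of 6.35% and 5.43% of the mean) and more spread in LRE (40.7% and 34.4%).

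Cathepsin C is a dipeptidyl peptidase that in mammals activates the serine proteases of immune cells. CTSC (ENSDARG00000101334) was at 27.9, 66.2 and 23.9 CPM in IEC and at 305, 195 and 287 CPM in LRE. The log2 fold change was 2.74 ± 0.45 (edgeR adjusted p = 0.0181), and the groups did not overlap, although IEC 2 was well above the other IEC libraries. Markers of macrophages and leukocytes were also highest in IEC 2, with a summed level of 613 CPM over 20 genes there. The other IEC libraries held 196 to 263 CPM, and LRE 1, 2 and 3 held 104, 191 and 131 CPM. Of 17 tested leukocyte markers none passed in edgeR or limma voom, 2 had an unadjusted p under 0.05, DESeq2 called 2 lower, and 3 were lower without overlap. Over all tested genes 17.0% had an unadjusted p under 0.05 and 13.8% were lower without overlap. DESeq2 called 819 of the 20979 genes lower. The most abundant, the lysozyme gene lyz, was at 123, 95.7 and 67.4 CPM in IEC and at 9.19, 2.77 and 61.8 CPM in LRE. CORO1A, picked after its values were seen, was at 51.2, 151 and 53.5 CPM in IEC, highest in IEC 2 as CTSC was. In LRE 1, 2 and 3 CORO1A was at 29.2, 44.7 and 20.0 CPM, highest in LRE 2, where CTSC was lowest. The part of leukocytes in the CTSC values was not tested. Without IEC 2 the log2 fold change of CTSC was 3.29 (edgeR adjusted p = 0.0176). The call ended without IEC 1, IEC 3 or LRE 3 (edgeR adjusted p from 0.0633 to 0.0743), and with scaling by library totals alone (0.0821).

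Cathepsin D is the aspartic member of the group. CTSD (ENSDARG00000057698) was at 147, 132 and 123 CPM in IEC and at 739, 318 and 596 CPM in LRE. It rose by the least of the 7 genes, with a log2 fold change of 2.04 ± 0.37 (edgeR adjusted p = 0.0257). Leaving out any 1 library other than LRE 2 ended the call (edgeR adjusted p from 0.0514 to 0.132), as did scaling by library totals alone (0.0792).

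Cathepsin K degrades collagen and is best known from osteoclasts, the cells that resorb bone. CTSK (ENSDARG00000040251) was at 5.18, 13.6 and 7.18 CPM in IEC and at 8.61, 11.9 and 8.85 CPM in LRE. The groups overlapped, and it did not pass (log2 fold change 0.18 ± 0.46, edgeR adjusted p = 0.886; -0.29 with scaling by library totals alone and -0.09 without IEC 1). Markers of fibroblasts, which can also express cathepsin K, summed to 656 to 1677 CPM in IEC and 2911 to 4732 CPM in LRE. All 10 fibroblast markers had positive log2 fold changes and 6 were higher without overlap, which 13.0% of all tested genes showed. None passed in edgeR, while DESeq2 called 5 higher and limma voom 1. Of all tested genes DESeq2 called 5.93% higher and limma voom 2.89%. An unadjusted p under 0.05 was reached by 7, against 17.0% of all tested genes. The most abundant, col1a1a, was at 302 to 807 CPM in IEC and 1330 to 1952 CPM in LRE.

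**Figure D3:**
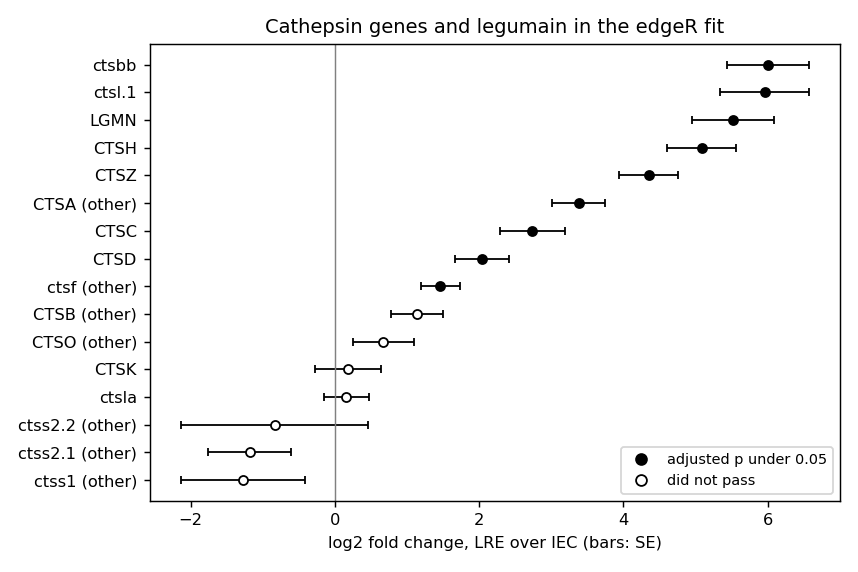
Log2 fold change of LRE over IEC with its SE for the 9 members and the 7 other tested genes of the cathepsin list, ordered by size; filled points passed at an adjusted p under 0.05, and names followed by (other) are not members. The members that rose span 2.04 to 6.00, ctsla and CTSK lie near 0, and the other genes that did not pass lie between -1.28 and 1.14.

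The 7 rising members were all lowest in LRE 2. Their level there was between 39.5% (LGMN) and 65.9% (CTSC) of the mean of LRE 1 and LRE 3, while ctsla and CTSK were at 137% of that mean. CUBN, amn, dab2 and lrp2b, the markers of the uptake machinery, were likewise lowest in LRE 2. Markers of the exocrine pancreas were highest in that library, summing to 5751 CPM against 429 and 1923 CPM in LRE 1 and LRE 3; in IEC they summed to 1666 to 4970 CPM. The part of these cells in the lower protease levels of LRE 2 was not tested.

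Results without LRE 1, the library that stood apart, kept the same order of size. The log2 fold changes were then 5.87 for ctsbb, 5.75 for ctsl.1, 5.27 for LGMN, 4.87 for CTSH, 4.20 for CTSZ, 2.62 for CTSC and 1.77 for CTSD, and 6 of the 7 calls remained, CTSD being the exception (edgeR adjusted p = 0.0514). With both libraries numbered 1 left out, 5 members passed, and the change beyond 2-fold passed only for ctsl.1, while ctsbb, CTSH, CTSZ and LGMN had a TREAT adjusted p of 0.0509.

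The make-up of the protease reads changed with the sort. Since longer transcripts give more reads, these shares compare a gene between groups, not genes with each other. The shares of all 9 members were compared. The share of ctsl.1 among member reads was 23.4% ± 5.51 in IEC and 55.7% ± 1.76 in LRE (mean ± SD over 3 libraries), and that of ctsbb 3.45% ± 1.36 and 8.28% ± 0.55. The share of LGMN was 12.6% ± 3.23 in IEC and 20.5% ± 2.44 in LRE. The share of ctsla went the other way, from 34.1% ± 0.78 to 1.69% ± 1.11, as did that of CTSD, from 11.3% ± 0.46 to 1.72% ± 0.11. The shares of CTSC, CTSZ and CTSK were also smaller in LRE. For each of these 8 members the groups did not overlap (exact permutation p = 0.1, the smallest possible, and 0.1125 adjusted over the 9 shares). A smaller share here need not mean a lower level, since CTSD, CTSC and CTSZ themselves rose. The CTSH share was 5.71% ± 0.78 in IEC and 7.07% ± 0.50 in LRE, and its groups overlapped (exact permutation p = 0.2). Although the level of the rising members differed between LRE libraries, the ctsl.1 share lay within 54.1 to 57.6% in all of them.

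**Figure D4:**
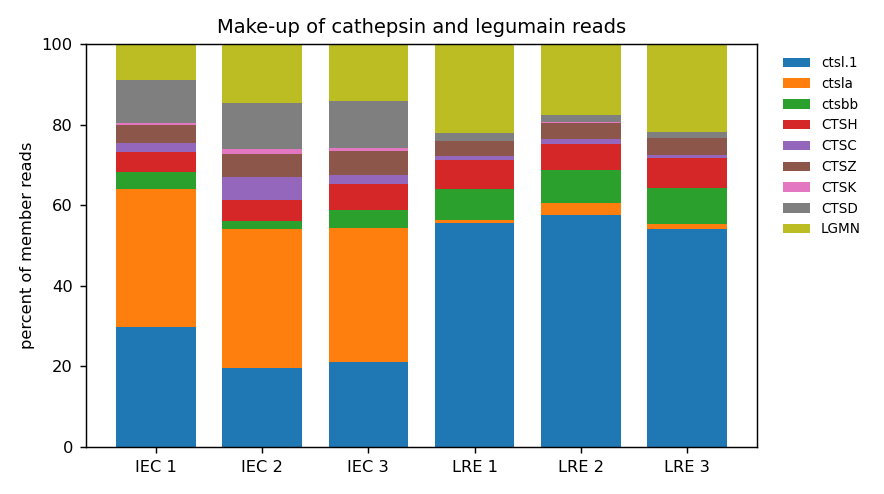
Percent of all member reads taken by each member (stacked bars from 0 to 100%) in the 6 libraries. The ctsla band shrinks from about 34.1% of the reads in IEC to 1.69% in LRE on average, and ctsl.1 grows from 23.4% to 55.7%.

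In IEC the rising members were present at a small fraction of their LRE level. Mean IEC levels were 1.56% of the LRE mean for ctsbb, 1.61% for ctsl.1, 2.18% for LGMN, 2.94% for CTSH and 4.89% for CTSZ, against 14.98% for CTSC and 24.3% for CTSD. The same quantity was 0.806% for CUBN, 1.01% for amn, 2.09% for dab2 and 2.73% for lrp2b. Whether the IEC signal of any of these genes came from dextran-positive cells inside the IEC gate was not tested.

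Among 11 other genes, those whose symbol begins with cts and a letter together with nots, 7 were tested, of which 2 rose and none fell, against the same 2.30% of all tested genes; their median log2 fold change was 0.67. CTSA, the serine carboxypeptidase cathepsin A, which in mammals also protects 2 lysosomal glycosidases, was at 37.4, 38.8 and 29.7 CPM in IEC and at 470, 224 and 406 CPM in LRE (3.38 ± 0.37, edgeR adjusted p = 0.00325). The cysteine protease gene ctsf was at 68.2, 76.3 and 71.2 CPM in IEC and at 220, 151 and 222 CPM in LRE (1.46 ± 0.27, edgeR adjusted p = 0.0274). Like CTSD, ctsf lost its call without any 1 library other than LRE 2 (edgeR adjusted p from 0.0600 to 0.143) and with scaling by library totals alone (0.233). The gene cts12, outside that list and added after its values were seen, was at most at 0.673 CPM in any library and did not pass (0.03 ± 1.57, edgeR adjusted p = 0.994). The cathepsin S genes, which in mammals serve antigen presentation in immune cells, had negative log2 fold changes that did not pass, with ctss2.1 at 10.4 to 44.7 CPM in IEC and 5.84 to 17.5 CPM in LRE (-1.18 ± 0.58, edgeR adjusted p = 0.351). In RefSeq's gene table ctsk, ctss2.1 and ctss2.2 lie next to each other, and none of the 3 passed.

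Other soluble lysosomal peptidases, together with the amidase gene AGA, were measured beside the cathepsins. Of 7 tested, 5 rose and none fell, against 2.30% of all tested genes higher, with a median log2 fold change of 2.69, and their summed level was 173 to 194 CPM in IEC and 1474 to 3343 CPM in LRE. CPVL, a serine carboxypeptidase gene, went from 29.2 to 43.6 CPM in IEC to between 646 and 1705 CPM in LRE (5.17 ± 0.50, edgeR adjusted p = 0.00245). SCPEP1, another carboxypeptidase gene, rose by 4.82 ± 0.44 (edgeR adjusted p = 0.00201), and TPP1, which encodes tripeptidyl peptidase 1, by 2.70 ± 0.40 (edgeR adjusted p = 0.0119). The call of TPP1 ended without IEC 3 (0.063) and with scaling by library totals alone (0.102). The other 2 that rose were DPP7, a dipeptidyl peptidase gene (2.69 ± 0.42, edgeR adjusted p = 0.0143), and napsa, an aspartic protease gene (1.79 ± 0.35, edgeR adjusted p = 0.0344). Of 16 alternatives, DPP7 was called in 12 and napsa in 9, while CPVL and SCPEP1 were called in all 16. PRCP (0.56 ± 0.35) and AGA (1.16 ± 0.50) did not pass.

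Exporters that carry the products of digestion out of the lysosome were measured beside the proteases. Of 8 tested genes, mostly exporters of amino acids and peptides, 5 rose and none fell, against 2.30% of all tested genes higher. The median log2 fold change of the 8 was 2.16. The 3 with the smallest p were the cystine exporter CTNS (2.45 ± 0.35, edgeR adjusted p = 0.0111), MFSD1 (2.43 ± 0.37, edgeR adjusted p = 0.0128), which in mammals exports dipeptides, and SLC38A7 (2.84 ± 0.47, edgeR adjusted p = 0.0181), a glutamine and asparagine transporter gene. Each of them lost its call with scaling by library totals alone (edgeR adjusted p of 0.0683, 0.0909 and 0.107) and without some single libraries. For CTNS this was LRE 3 (0.0509), for MFSD1 IEC 3 or LRE 3 (0.0726 at most), and for SLC38A7 any 1 IEC library (0.0827 at most). The other 2 that rose were SLC38A9 (3.08 ± 0.52, edgeR adjusted p = 0.0191), called in 12 of 16 alternatives, and SLC36A1 (1.89 ± 0.40, edgeR adjusted p = 0.0442), called in 9. None of the 5 exporter calls held in all 16. DESeq2 and limma voom each called 7 of the 8 genes higher, against 5.93% and 2.89% of all genes. An unadjusted p under 0.05 was reached by 7, against 17.0% of all tested genes. Without overlap 7 were higher, which 13.0% of all tested genes showed. SLC29A3, a nucleoside transporter gene on this list, did not pass (0.45 ± 0.50, edgeR adjusted p = 0.724).

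Genes that inhibit, sort or switch on the proteases were measured as well. None of the 3 cystatin genes, which encode inhibitors of cysteine cathepsins, passed, and none had an unadjusted p under 0.05 or was called by DESeq2 or limma voom. The cystatin C gene cst3 was at 769, 366 and 309 CPM in IEC and at 600, 419 and 403 CPM in LRE, with overlapping groups (-0.02 ± 0.41, edgeR adjusted p = 0.985). Among 17 tested genes for sorting enzymes to the lysosome by mannose phosphate tags, sortilins and their adaptors, none passed in edgeR or limma voom. An unadjusted p under 0.05 was reached by 3, where 17.0% of all tested genes reached it. Without overlap 2 were higher and 2 lower, against 13.0% and 13.8% of all tested genes. DESeq2 called 1 higher and 1 lower, and over all 20979 genes 1245 higher and 819 lower. Among the genes without overlap, NAGPA was higher (1.39 ± 0.37, edgeR adjusted p = 0.0918) and SORL1 lower (-1.53 ± 0.41, edgeR adjusted p = 0.0906). The mannose phosphate receptor gene IGF2R was at 11.5, 20.8 and 16.4 CPM in IEC and at 21.9, 25.9 and 18.0 CPM in LRE (0.43 ± 0.33, edgeR adjusted p = 0.576). Another such receptor gene, M6PR, had the opposite sign. It was at 33.2, 37.0 and 36.0 CPM in IEC and at 34.5, 23.6 and 18.8 CPM in LRE (-0.47 ± 0.30, edgeR adjusted p = 0.485). Of 6 tested genes of the TFEB family, transcription factors that activate lysosomal genes, 1 passed, where 2.30% of all tested genes were higher. This was TFEB itself, at 3.92, 6.35 and 2.55 CPM in IEC and at 43.2, 72.1 and 113 CPM in LRE (4.15 ± 0.50, edgeR adjusted p = 0.00491). Its order among LRE libraries differed from that of the proteases, with LRE 1 lowest.

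Core subunits of the proteasome, which digests protein in the cytosol, served as a contrast. All 14 had negative log2 fold changes, with a median of -0.58, but none passed in edgeR, DESeq2 or limma voom. An unadjusted p under 0.05 was reached by 4, against 17.0% of all tested genes. In 9 of the 14 the LRE values lay below the IEC values without overlap, which 13.8% of tested genes showed. The summed level was 2056, 1264 and 1177 CPM in IEC 1, 2 and 3 and 1051, 1034 and 956 CPM in LRE 1, 2 and 3. IEC 1 thus stood far above the rest, and the other IEC libraries were nearer to LRE.

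**Figure D5:**
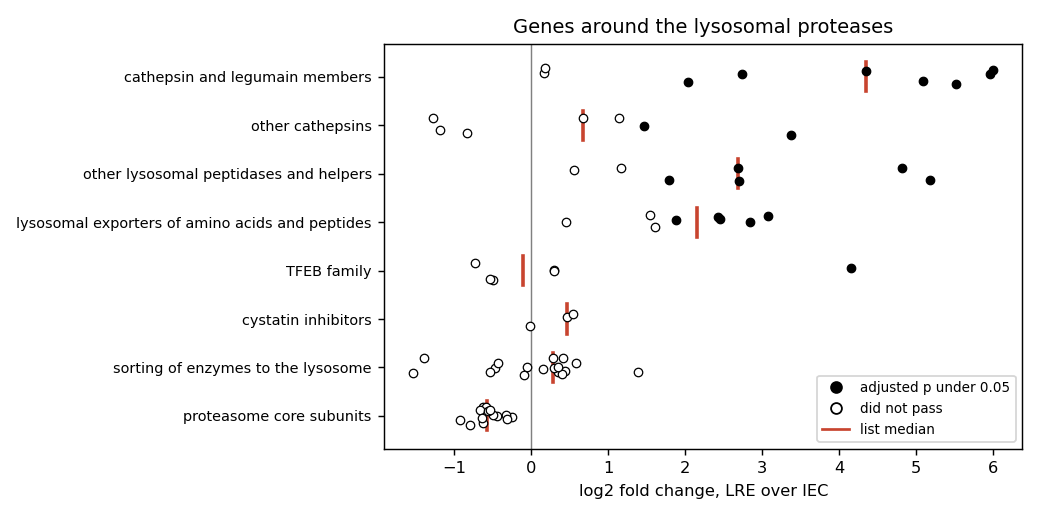
Log2 fold change of LRE over IEC for each tested gene of the members and of 7 related lists; filled points passed at an adjusted p under 0.05, and red bars are list medians. Most points are filled among the members, the other peptidases and the exporters, and the lists of cystatins, sorting genes and proteasome subunits hold none.

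Markers of other cells moved with the sort in part. Of 9 tested epidermis markers, 8 had positive log2 fold changes, 6 were higher without overlap and 1, TP63, passed, while icn was lower without overlap. In the same list 8 had an unadjusted p under 0.05, DESeq2 called 5 higher and 1 lower, and limma voom called 3 higher. Of all 20979 tested genes edgeR called 2.30% higher, DESeq2 5.93% and limma voom 2.89%, and DESeq2 called 819 lower. Over all tested genes 17.0% had an unadjusted p under 0.05. Without overlap, 13.0% of them were higher and 13.8% lower. The call of TP63 ended without any 1 library other than LRE 1. The list summed to 9115 to 12285 CPM in IEC and 13836 to 22397 CPM in LRE. Its most abundant gene krt4 was at 4375 to 7264 CPM in IEC and 8702 to 12032 CPM in LRE. The 3 tested osteoclast markers did not move together. The acid phosphatase gene acp5b rose (3.94 ± 0.47, edgeR adjusted p = 0.00491). The other acid phosphatase gene, ACP5, did not pass, at 2.86 to 13.1 CPM in IEC and 0.0342 to 4.49 CPM in LRE (-1.90 ± 1.25, edgeR adjusted p = 0.502). The calcitonin receptor gene CALCR was higher without overlap but did not pass (1.87 ± 0.98, edgeR adjusted p = 0.387), and ocstamp, not tested, was at most at 1.17 CPM in any library. None of 10 exocrine pancreas markers and none of 3 tested pronephros markers passed in edgeR, DESeq2 or limma voom, or had an unadjusted p under 0.05. The most abundant of them were prss1, at 300 to 965 CPM in IEC and 73.7 to 1060 CPM in LRE, and SLC12A3, at most at 8.75 CPM in any library. Of the 3 hatching gland markers, 2 had no read in any library. What part epidermis and fibroblasts have in the rise of the proteases was not tested.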

How the data were processed

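The 6 libraries were each deposited as whole-number counts per Ensembl gene, made by the authors with HISAT2 and HTSeq on GRCz10, per the submitters' processing notes; for versions, annotation release and strand mode, the entry is: not given in the sources used here. Total RNA came from sorted cells and libraries from a kit for ultra low inputs, per the labels' protocols. Amplification from little RNA can widen the spread between libraries. Each file held 35117 IDs and 0 entries that named no gene; 27000 IDs had a symbol. No authors' normalization was found in the values.

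Members and lists were chosen with earlier results of these data known. Groups came from sample titles. All genes were fitted at once with edgeR 4.0.16 (R 4.3.3; TMM factors from 0.692 to 1.40; filterByExpr, minimum count 10 and total 15, leaving 20979 genes), checked on simulated data. The SE is the log2 fold change divided by the root of F. Named genes were all members, up to 3 passing genes of each related list by smallest p, the most abundant tested gene of each marker list, and the 5 nearest profiles; other names were picked after their values were seen. Ratios between copies used counts plus 0.5.

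Libraries of equal number deviated together (Pearson's r across genes of 0.217, 0.238 and 0.188 in the pairs 1, 2 and 3). Between libraries of unequal number r was -0.194 to 0.014. Deviations were taken from group means, so positive values at equal numbers pull the others down. The values at unequal numbers are therefore no separate evidence. The libraries may be paired by number, a reading from the data alone. The main fit and the exact tests compared the groups without this pairing. Alternatives were the library number as a block, other scaling and filters, DESeq2 1.42.0, limma voom 3.58.1 and leaving out libraries.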

Additional observations from a re-analysis of the deposited data

How the results depend on the processing

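Under 16 alternatives ctsl.1, ctsbb, CTSH, CTSZ and LGMN passed every time, with adjusted p up to 0.0313; CTSC passed in 11 and CTSD in 9. The count of members called higher was 5 to 7, and 0 were lower. The count beyond 2-fold fell to 1 without both libraries numbered 1. Over all genes, 483 were higher and 191 lower; the counts were 1245 and 819 with DESeq2, 789 and 367 with the replicate block, 606 and 290 with limma voom, 137 and 182 with library totals alone, and 251 and 144 without both libraries numbered 1. Leaving out 1 library gave 146 to 419 higher and 28 to 261 lower. Totals alone moved the median of all genes by -0.40 (log2). The block changed no call of a member. With copy letters and numbers in symbols ignored, 6 of 9 tested genes of the peptidase list were higher, where the listed symbols gave 5 of 7. Of 13 exocrine pancreas markers, edgeR, DESeq2 and limma voom then each called 1 higher. The shares of all tested genes were 2.30%, 5.93% and 2.89%. The edgeR counts of calls in the other lists stayed the same. The differences of the log2 ratios between copies were also 5.81 and 4.80 with pairing. With equal group sizes pairing cannot change a mean difference, so this was no check of them. Signs turned for genes that did not pass. With totals alone, ctsla was at -0.17 and CTSK at -0.29; cst3 was at 0.061 with limma voom, 0.073 with the replicate block and 0.28 without both libraries numbered 1. Leaving out 1 library gave log2 fold changes of -0.0078 to 0.333 for ctsla, -0.0853 to 0.618 for CTSK and -0.315 to 0.484 for cst3. The cause was not tested. With 3 libraries a group, exact tests cannot go below 0.1.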

Other observations

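The genes whose profile over the 6 libraries lay closest to the mean profile of the members were GALC, CTSA, tpcn3, zgc:110239 and cyp2k20, out of 8623 genes with a symbol at a mean of at least 10 CPM. Closeness is the root mean square difference of centred log2(CPM + 1) values, which was 0.123 for GALC, the galactosylceramidase gene of the lysosome, and 0.169 for CTSA. It was 0.184 for tpcn3, which encodes a two-pore channel, and 0.191 for zgc:110239 and for cyp2k20. In IEC tpcn3 and cyp2k20 averaged only 2.15 and 0.960 CPM. At such levels the added 1 makes a change smaller, so their closeness depends in part on it. The mean profile also blends the rising members with ctsla and CTSK, which did not pass. Among the members themselves CTSZ was closest to their mean, at 0.385, and ctsla farthest, at 1.75.

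Further cathepsin L copies, some of them known from the hatching gland, were near the floor of detection. The hatching gland gene ctslb had 0 counts in all 6 libraries, which allows up to 3 counts in each, and ctslb.4 had at most 3 counts in any library. The copy ctsll had 28, 22 and 0 counts in IEC 1, 2 and 3 and 0 in each LRE library.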
